A study of Danio rerio with 8 samples.

Results

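Fluorescent sox10:kikGR+ cells sorted from slc30a1 mutant zebrafish were compared with the same cells from control embryos at 2.5 days post-fertilization (dpf), across all genes. The comparison took in 4 of the 8 libraries of the study, 2 of mutants and 2 of controls. A gene was tested when its 4 values averaged 0.5 FPKM or more, and 17379 of the 32057 listed genes did so. FPKM is a count of fragments corrected for transcript length and for how many fragments of the library were mapped. Mutants were slc30a1a-/-; slc30a1b-/- double knockouts made with CRISPR/Cas9, and controls were their siblings. All embryos carried Tg(sox10:kikGR), in which sox10 regulatory sequence drives a photoconvertible fluorescent protein. The study also raised mutants from parents that all lacked slc30a1b, and the sources used here do not say whether the sorted controls lacked it too. The number of embryos pooled for a library is not stated, and no label ties a library to a separate clutch or sort, so the p-values measure only the spread between these samples.

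Slc30a1, also called ZnT1, is the zinc exporter of the plasma membrane, and zebrafish carry a pair of copies of its gene. A rise of free zinc inside a cell activates the transcription factor Mtf1, which switches on metallothionein genes, whose products bind the metal. The neural crest is a migratory embryonic population that gives rise to the cartilage of the pharyngeal arches (PA), pigment cells, peripheral neurons, and glia. Sox10 marks neural crest cells (NCCs) after they form and is kept in glia, pigment precursors, the otic epithelium, and oligodendrocytes.

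The libraries were alike in scale, with summed values between 609836 and 658145 FPKM and between 23159 and 24327 genes above 0. Read depth is unknown, since the files hold no counts. Replicate 2 of the controls held the highest of the 4 values for 32% of all genes tested and replicate 1 of the controls for 17%. Of the targeted genes, slc30a1a was at 8.56 and 11.2 FPKM in controls and at 5.44 and 4.98 FPKM in mutants. Both mutant libraries lay below both controls, at 52.7% of the control mean, and its transcript was still detected. The second gene, slc30a1b, was close to 0 in all 4 libraries (0 and 0.08 FPKM in controls, 0.06 and 0.1 FPKM in mutants), so its level does not check the genotype. The sorting gene sox10 was at 122 and 156 FPKM in controls and at 111 and 85.5 FPKM in mutants (log2 fold change -0.50 ± 0.22, SE, adjusted p = 0.442, limma). Sorted cells of both genotypes also held RNA of blood, lens, retina, muscle, and skin genes, which are described further on.

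No gene passed a Benjamini-Hochberg adjusted p of 0.05 by limma on log2(FPKM + 1), which is 0% of the genes tested, and the smallest adjusted p was 0.058. An unadjusted p under 0.05 was reached by 1248 genes that were higher in mutants (7.18%) and by 880 that were lower (5.06%). Of these, 290 were also more than 1 log2 unit higher (1.67%) and 222 more than 1 log2 unit lower (1.28%), thresholds like those of the study, here applied to limma fits of log2(FPKM + 1) and not to the fold changes and p-values of its own pipeline. Both mutant libraries lay above both controls for 24.3% of all genes tested and below both for 19.2%. These shares, with 7.18% and 5.06% for the unadjusted p, are the background of the counts of each list below. All of the 290 and all of the 222 genes were without overlap between the groups, so non-overlap of such genes follows from their selection. Genes named below for an unadjusted p under 0.05 were picked in the same libraries. Their lack of overlap likewise largely follows from that choice and is no support. When all 8 libraries of both stages shared an estimate of the spread, 276 genes passed the adjusted threshold (191 higher, 85 lower), and with genes under a mean of 2 FPKM left out 28 passed (18 higher, 10 lower). The statements on genes that follow rest on the unadjusted p, unless the 8-library fit is named, and "higher" and "lower" always refer to mutants compared with controls. In such bulk libraries, fewer cells of a type and less RNA per cell cannot be told apart.

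Among the genes furthest above controls, several encode secreted peptides or proteins of stress and defence. The ubiquitin-like interferon response gene isg15 was at 1.52 and 0.47 FPKM in controls and at 16.9 and 57.1 FPKM in mutants. The forkhead gene foxi1, which acts in the otic placode and in ionocytes, was at 0.6 and 1.22 FPKM in controls and at 12.6 and 23.24 FPKM in mutants. The neuropeptide gene ghrh was at 0.63 and 0.62 FPKM in controls and at 9.23 and 21.3 FPKM in mutants. The 12 genes were picked among those without overlap between the groups. For these 3 genes replicate 2 of the mutants was the higher mutant library. Log2 fold changes were 4.07 ± 0.59 for isg15 (SE, adjusted p = 0.101, limma), 3.27 ± 0.34 for foxi1 (adjusted p = 0.0687, limma), and 3.22 ± 0.38 for ghrh (adjusted p = 0.0752, limma). The somatostatin gene sst2 had the largest difference of all, from 0.3 and 0 FPKM in controls to 12 and 132 FPKM in mutants. Its log2 fold change was 5.19 with all libraries and 3.51 without replicate 2 of the mutants. An identifier of ms4a17a.10, of the family of 4-span membrane proteins, was at 1.9 and 0.54 FPKM in controls and at 39 and 66.8 FPKM in mutants, while a second identifier of the same symbol was at 56 and 43.7 FPKM in controls and at 26.1 and 21.11 FPKM in mutants. How reads were split between such close copies is not known. The remaining genes of this group of 12 were cdkn1a and fthl28, described with their pathways, and the unnamed loci si:ch211-196h16.12, CR352342.1, AL645792.2, si:ch211-92l17.1, and BX537288.1, with log2 fold changes between 3.42 and 4.71. In the 8-library fit, all of the 12 but sst2 passed the adjusted threshold.

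**Figure D1:**
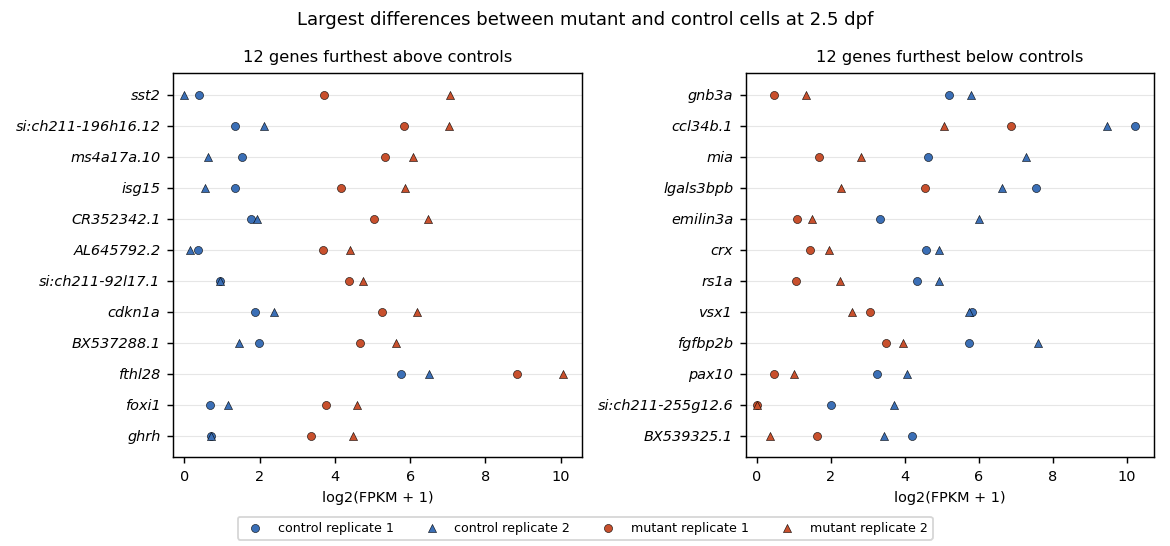
Level in each library, as log2(FPKM + 1) on the horizontal axis, of the 12 genes furthest above and the 12 furthest below controls at 2.5 dpf among those past the selection of the study with no overlap between groups (vertical axis). Blue marks are controls and red marks are mutants, with circles for replicate 1 and triangles for replicate 2. sst2, from 0.3 and 0 FPKM to 12 and 132 FPKM, is spread most between the mutant libraries, and vsx1 is nearly equal between the control libraries.

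The 12 genes furthest below controls included gnb3a, crx, rs1a, and vsx1, described with the retina. The chemokine gene ccl34b.1 was at 1209 and 704 FPKM in controls and at 115 and 32.6 FPKM in mutants. The gene of a galectin-3 binding protein, lgals3bpb, was at 186 and 97.9 FPKM in controls and at 22.6 and 3.83 FPKM in mutants. In both, replicate 1 was the higher library of each group, and the absence of overlap was a condition for being among the 12. Their log2 fold changes were -3.88 ± 0.60 (SE, adjusted p = 0.116, limma) and -3.67 ± 0.76 (adjusted p = 0.177, limma). A Pax6-related gene, pax10, was at 8.49 and 15.8 FPKM in controls and at 0.39 and 1 FPKM in mutants. Of the matrix genes, emilin3a was at 9.14 and 62.9 FPKM in controls and at 1.13 and 1.8 FPKM in mutants, and fgfbp2b at 52.1 and 192 FPKM in controls, with a mean of 12.3 FPKM in mutants and no overlap. Both of these were highest in replicate 2 of the controls. Without that library the log2 fold change went from -3.38 to -2.05 for emilin3a and from -2.94 to -2.01 for fgfbp2b. The cartilage gene mia and the unnamed loci si:ch211-255g12.6, listed at 0 in both mutant libraries, and BX539325.1 completed these 12 genes.

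Metal genes differed most in a few members. Of 15 genes of metal binding and storage, 4 were higher and none was lower (7.18% and 5.06% over all genes). Both mutant libraries lay above both controls for 6 of the 15 and below both for none (24.3% and 19.2% over all genes). The median log2 fold change was 0.29 (0.02 over all genes tested), and stayed between 0.20 and 0.69 with each library left out. The metallothionein gene mt2 was at 0.3 and 0.84 FPKM in controls and at 7.41 and 16.9 FPKM in mutants. Every mutant value was above every control value, with a ratio of the means of 21.3. On the log2(FPKM + 1) scale, which understates the change of low genes, the difference was 2.99 ± 0.40 (SE, adjusted p = 0.0953, limma). The other 3 were ferritin heavy chain-like genes, whose products store iron. The most abundant of them, fthl28, was at 52.7 and 89.6 FPKM in controls and at 459 and 1066 FPKM in mutants (log2 fold change 3.33 ± 0.45). A second, fthl29, was at 5.44 and 8.43 FPKM in controls and at 47.9 and 60 FPKM in mutants. One identifier of fthl27 was at 6.96 and 21.7 FPKM in controls and at 29.5 and 108 FPKM in mutants, and the far more abundant identifier of the same symbol was at 1295 and 1024 FPKM in controls and at 1543 and 1235 FPKM in mutants, with overlap. These ferritin genes are close copies, so their separate values are uncertain. The zinc sensor mtf1 was low and similar in the groups, at 0.95 and 0.76 FPKM in controls and at 0.87 and 0.81 FPKM in mutants.

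Zinc transporters were mostly level between the groups. Of 8 slc30a exporters tested, the targeted slc30a1a alone was lower and none was higher. Of 7 slc39a importers, slc39a6, which brings zinc into the cell, was higher, at 13.7 and 12.4 FPKM in controls and at 24.7 and 22.3 FPKM in mutants. The mutant values were close to each other and above both controls (log2 fold change 0.80 ± 0.18, SE, adjusted p = 0.201, limma), and it passed the adjusted threshold in the 8-library fit. The medians were -0.10 for both transporter lists.

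The p53 pathway had the largest share of higher genes among the stress lists. This pathway responds to DNA damage and other stress and drives genes of cell cycle arrest and apoptosis. Of 18 targets tested, 9 were higher and 1 was lower (7.18% and 5.06% over all genes). Both mutant libraries lay above both controls for 11 of the 18 (24.3% over all genes). The median log2 fold change was 0.76, between 0.70 and 0.98 with each library left out and 0.46 without a filter on level. With each library left out 9 or 10 targets were higher, in fits whose estimate of the spread comes from the group that keeps both libraries. Summed over the list, the level was 651 and 522 FPKM in controls and 1988 and 2976 FPKM in mutants.

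Of these genes, cdkn1a, which encodes the cyclin-dependent kinase inhibitor p21, was at 2.65 and 4.24 FPKM in controls and at 36.9 and 71.3 FPKM in mutants. The groups did not overlap, and replicate 2 of the mutants was the highest library. The log2 fold change was 3.58 ± 0.36 (SE, adjusted p = 0.0687, limma), or 15.7 times the control mean. The cyclin G1 gene ccng1 was at 69.3 and 85.6 FPKM in controls and at 340 and 350 FPKM in mutants (log2 fold change 2.15 ± 0.17). The target rps27l, a paralog of a ribosomal protein gene, was at 347 and 212 FPKM in controls and at 1243 and 2117 FPKM in mutants (log2 fold change 2.58 ± 0.34). For both, the lower mutant library was clear of both controls. A few further members were named after their values were seen, with log2 fold changes of 1.31 for mdm2, a ubiquitin ligase that acts as brake of the pathway, 1.57 for phlda3, and 1.85 for gadd45aa, a growth arrest gene.

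Single apoptosis genes passed in either direction. The Bcl2 family killer gene bbc3 (Puma) was at 0.42 and 0.37 FPKM in controls and at 1.68 and 2.56 FPKM in mutants, and the initiator caspase gene casp8 at 1.96 and 1.8 FPKM in controls and at 4.21 and 5.16 FPKM in mutants. Both were above controls in both mutant libraries and passed the adjusted threshold in the 8-library fit. In the other direction, pmaip1 (Noxa) was at 31.5 and 23.8 FPKM in controls and at 17.7 and 19.8 FPKM in mutants. baxa, which encodes the pore-forming Bax, had values of 21.2 and 22.4 FPKM in controls and of 25.9 and 23.6 FPKM in mutants and did not pass. Over the 19 members of the Bcl2 family and the caspases, 2 were higher and 1 was lower, beside 7.18% and 5.06% over all genes. The median was 0.18, and members such as casp8 and pmaip1 were also counted among the p53 targets. The dead cells had been removed with a dye before sorting.

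**Figure D2:**
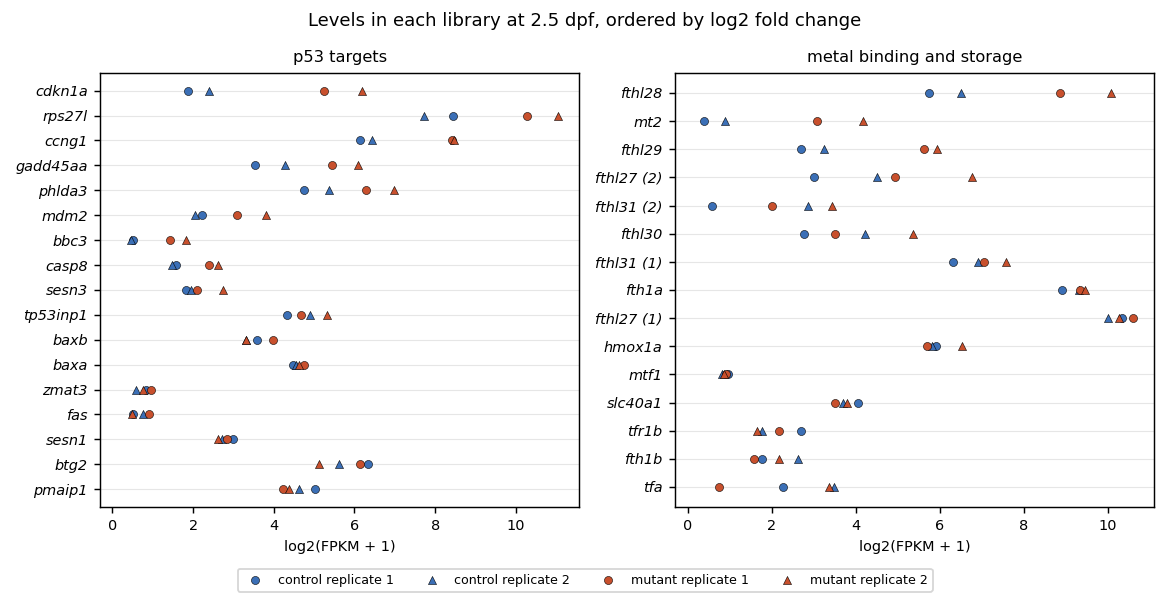
Level in each library, as log2(FPKM + 1) on the horizontal axis, of 17 of the 18 p53 targets and of the 15 metal genes tested, ordered by log2 fold change; identifiers that share a symbol are numbered. Blue marks are controls and red marks are mutants, with circles for replicate 1 and triangles for replicate 2. The upper p53 genes, from casp8 (log2 fold change 0.98) to cdkn1a (3.58), have both mutant libraries to the right of both controls, and so do mt2 and fthl28.

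Other stress programmes had fewer genes that passed. In oxidative defence, 4 of 24 genes were higher and none was lower (7.18% and 5.06% over all genes). Both mutant libraries lay above both controls for 10 of the 24 and below both for 1 (24.3% and 19.2% over all genes). The median was 0.24. prdx1, which reduces peroxides, was at 17.6 and 18.8 FPKM in controls and at 50.4 and 52.1 FPKM in mutants, and the thioredoxin gene txn was at 50.3 and 49.5 FPKM in controls and at 104 and 126 FPKM in mutants. Replicates were close and the groups far apart for both (log2 fold changes 1.45 ± 0.17 and 1.18 ± 0.18). In the methionine cycle, mat2al, of the family of enzymes that make S-adenosylmethionine, was at 3.5 and 3.97 FPKM in controls and at 27.5 and 32 FPKM in mutants. This was among the most even differences between the groups (log2 fold change 2.70 ± 0.19, SE, adjusted p = 0.058, limma), while 1 of the other 13 members, mtr, was higher at 0.65. Among 19 cytosolic heat shock genes, hspb1 was at 4.79 and 4.97 FPKM in controls and at 12.3 and 17.2 FPKM in mutants, and hsp90aa1.1 at 4 and 5.78 FPKM in controls and at 13.9 and 12.5 FPKM in mutants. The inducible hsp70.2 was uneven within both groups, at 14.5 and 307 FPKM in controls and at 928 and 24.9 FPKM in mutants, and the list's median of 0.26 lay between -0.14 and 0.52 with each library left out. Genes of the unfolded protein and amino acid response did not stand apart, with 1 of 23 higher (asns, 0.50) and a median of -0.21 that became 0.10 without replicate 2 of the mutants. Of 8 interferon response genes tested, isg15 was the single one that passed in either direction.

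Immediate early genes, which cells induce within minutes of handling, followed the replicate number more than the genotype. Their summed level was 3336 FPKM in replicate 1 and 2057 FPKM in replicate 2 of the controls, and 3924 and 1758 FPKM in the same replicates of the mutants. Of 24 genes, klf2b alone was lower and none was higher. Hemoglobin and other red blood cell genes split in the same way, with sums of 9353 and 4831 FPKM in controls and 15710 and 5122 FPKM in mutants, and with 1 of 22 lower (tal1). The part of handling and of blood in other differences was not tested.

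In programmes of growth, medians were small and few genes passed. Of 79 cytosolic ribosomal protein genes, 3 were higher (among them rpl11 and rpl5a, log2 fold changes 0.49 and 0.40) and none was lower. Over all genes tested, 7.18% were higher and 5.06% lower. Both mutant libraries lay above both controls for 36 of the 79 (24.3% over all genes), and the median was 0.17. Replicate 2 of the mutants held the highest value for 65 of the 79, and without it the median was 0.08. The count of higher genes was 1 without replicate 1 of the mutants and 0 with any other library left out, and 1 was lower without replicate 1 of the controls. Of 34 mitosis genes, 2 were higher (birc5a at 0.55 and spc25 at 0.56), and of 43 DNA replication genes, 2 were higher (cdc45 and pold2), with medians of 0.19 and 0.09. The mitosis count was 0 in each fit that left out a library other than replicate 1 of the mutants. Both mutant libraries lay above both controls for 17 of the 34 mitosis genes and below both for 1. These counts were 13 and 8 of the 43 DNA replication genes, and 13 and 1 of 29 ribosome biogenesis genes. Over all genes the shares were 24.3% and 19.2%. Of the 29 ribosome biogenesis genes, polr1d, a subunit of the polymerase that makes ribosomal RNA, was the single higher one. It was at 51.2 and 48.4 FPKM in controls and at 77.3 and 78.5 FPKM in mutants. The respiratory chain, sterol synthesis, and glycolysis lists had between 0 and 1 member in either direction and medians between -0.06 and 0.10. The glycolytic gene eno1b, at 9.51 and 10.4 FPKM in controls and at 4.53 and 5.75 FPKM in mutants, was the lower one of its list.

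Neural crest specifiers, the transcription factors that define NCCs, moved in both directions, with 6 of 25 higher and 5 lower (7.18% and 5.06% over all genes). Higher ones included snai2, a zinc finger repressor of epithelial genes, at 8.02 and 10.9 FPKM in controls and at 15.07 and 17.2 FPKM in mutants (log2 fold change 0.73 ± 0.22, SE, adjusted p = 0.29, limma). twist1a, which keeps crest mesenchymal, was at 94.9 and 153 FPKM in controls and at 204 and 238 FPKM in mutants, and msx3 at 26 and 51 FPKM in controls and at 70.4 and 84.7 FPKM in mutants. In these 3 genes, named for their unadjusted p, all mutant values exceeded all control values, with replicate 2 the higher in each group. Lower ones were led by tfap2e, at 11.3 and 14.2 FPKM in controls and at 2.35 and 3.78 FPKM in mutants, and by tfap2c, at 2.82 and 4.99 FPKM in controls and at 0.93 and 1.49 FPKM in mutants. Both encode AP-2 factors, which act in early crest and in pigment and epidermal cells, and the first passed the adjusted threshold in the 8-library fit. The list's median was 0.35, between 0.25 and 0.41 with each library left out and 0.05 with genes under a mean of 2 FPKM left out. The counts moved, to 3 higher and 6 lower without replicate 1 of the controls, 7 and 3 without replicate 2 of the controls, 4 and 2 without replicate 1 of the mutants, and 2 and 3 without replicate 2 of the mutants. The crest gene foxd3 overlapped between the groups, at 93.5 and 53.8 FPKM in controls and at 94.2 and 57.6 FPKM in mutants, with replicate 1 the higher in each.

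Of 10 stemness and Myc genes tested, 3 were higher and 2 were lower (7.18% and 5.06% over all genes). tert, the catalytic subunit of telomerase, was at 0.67 and 0.66 FPKM in controls and at 2.97 and 3.14 FPKM in mutants. lin28a, an RNA-binding protein of pluripotent cells, was at 1.14 and 1.47 FPKM in controls and at 3.78 and 3.73 FPKM in mutants. Levels were low and even within the groups (log2 fold changes 1.28 ± 0.17 and 1.05 ± 0.19), and both passed the adjusted threshold in the 8-library fit. sall4 was higher by 0.54, klf4 was lower by -0.49, and mych was lower by -0.64 on the log2 scale. The median of the list was 0.08, and -0.16 without replicate 1 of the controls. In that fit 2 were lower, and none was with any other library left out, while 4 were higher without replicate 2 of the controls and 2 in the remaining fits.

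Among 37 genes of guidance and migration, 3 were higher and 2 were lower, close to the shares over all genes (7.18% and 5.06%). Their median was 0.02, and between -0.07 and 0.20 with each library left out. It turned negative (-0.00) under median-ratio rescaling and under quantile normalization. The pair of receptors for the chemokine Cxcl12 went opposite ways. cxcr4a was at 1.43 and 1.45 FPKM in controls and at 3.8 and 5.51 FPKM in mutants, and cxcr4b at 20 and 23.4 FPKM in controls and at 11.2 and 11.4 FPKM in mutants. The groups did not overlap for either copy. The scavenging receptors of the same ligand, ackr3a and ackr3b, were higher by 0.70 and 0.54, and the cadherin gene cdh7a was lower by -1.0.

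Arch transcription factors likewise moved in both directions, with 5 of 38 higher and 5 lower (7.18% and 5.06% over all genes). Both mutant libraries lay above both controls for 14 and below both for 7 (24.3% and 19.2% over all genes). The median was 0.14, and between -0.13 and 0.33 with each library left out. The higher ones included the paired-like gene prrx1b, at 16.1 and 24.5 FPKM in controls and at 54.3 and 37.9 FPKM in mutants. The forkhead gene foxc1a was at 31.3 and 46.4 FPKM in controls and at 65.2 and 80.8 FPKM in mutants. In the other direction, irx7, which acts at the hyoid joint, was at 6.87 and 9.05 FPKM in controls and at 2.79 FPKM in both mutant libraries, and nkx3.2, a jaw joint gene, at 10.52 and 18.7 FPKM in controls and at 4.03 and 7.15 FPKM in mutants. None of these overlapped between the groups. tbx22 was lower by -1.09 and shox2 by -1.07, the latter with replicate 2 of the controls at 36.2 FPKM against 15.06 FPKM in the other control, and pitx3 was higher by 1.23. Without replicate 1 of the controls 4 of the 38 were higher and 8 lower, and without replicate 2 of the controls 8 were higher and 2 lower.

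Of the 8 dlx genes, which set dorsoventral identity in the arches, dlx4a alone passed, at 82.5 and 119 FPKM in controls and at 41.3 and 29.1 FPKM in mutants. Its mutant values lay below both controls (log2 fold change -1.49 ± 0.27, SE, adjusted p = 0.146, limma), and the other 7 genes overlapped between the groups. The study compared signature genes of the arch domains between mutants and controls in these same samples, so a direction of those lists here is not independent evidence. Of its dorsal genes, 7 of 35 were higher and none was lower, with a median of 0.11 that became -0.08 without replicate 1 of the controls, a fit in which 1 was higher and 2 were lower. Over all genes tested, 7.18% were higher and 5.06% lower. The dorsal median was 0.32 without replicate 2 of the controls, and 0.15 and 0.14 without replicate 1 or 2 of the mutants. The Notch ligand jag1b was one of the 7 higher dorsal genes, at 1.57 and 2.5 FPKM in controls and at 4.14 and 5.73 FPKM in mutants. The groups did not overlap (log2 fold change 0.97 ± 0.25). The others were postnb (1.03), twist1a (0.86), bmp2b (0.79), fmoda (0.72), ednraa (0.61), and snai1a (0.55). Without replicate 2 of the mutants, 2 of the dorsal genes were higher. Of its ventral genes, 3 of 18 were higher and none was lower (median 0.11, with 1 higher and 5 lower without replicate 1 of the controls), of its ventral-intermediate genes 1 of 21 was higher and 1 lower (median 0.11, or -0.09 without replicate 2 of the mutants), and of its intermediate genes 2 of 14 were higher and 3 lower (median 0.23). The intermediate median was -0.03 without replicate 1 of the controls, and 5 of these genes were higher without replicate 2 of the controls.

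Signalling genes passed in small numbers. Of 35 BMP genes, 5 were higher and 1 was lower (7.18% and 5.06% over all genes). The ligand gene bmp2b was at 7.13 and 9.56 FPKM in controls and at 12.6 and 17.9 FPKM in mutants, and the target id1 was at 579 and 431 FPKM in controls and at 713 and 941 FPKM in mutants. Both exceeded controls in both mutant libraries, as did the decoy receptor bambia (0.65) and gdf6a (0.66). The antagonist nog3, which is expressed in arch cartilage, was at 14.6 and 59.7 FPKM in controls and at 6.05 and 6.97 FPKM in mutants. Its difference of -2.04 was -1.06 without replicate 2 of the controls. Of 48 Wnt genes, 7 were higher and 1 was lower. The enhancer rspo1 was at 0.36 and 0.26 FPKM in controls and at 2.61 and 3.6 FPKM in mutants, and the inhibitor dkk1b was at 5.52 and 9.34 FPKM in controls and at 18.2 and 23.9 FPKM in mutants. The secreted inhibitor frzb was at 2.85 and 2.7 FPKM in controls and at 0.84 and 0.54 FPKM in mutants. All 3 passed the adjusted threshold in the 8-library fit. Without replicate 2 of the controls the list medians were 0.29 for BMP and 0.30 for Wnt genes. The medians of 0.12 for BMP and 0.11 for Wnt turned negative without replicate 1 of the controls, at -0.02 and -0.12, with 1 BMP gene higher and 2 lower and 2 Wnt genes higher and 4 lower. Without replicate 2 of the mutants, 1 BMP gene was higher and none lower, and 4 Wnt genes were higher and 3 lower.

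Of 24 TGF-beta genes, 4 were lower and 1 was higher (5.06% and 7.18% over all genes). The lower ones were ctgfb, a matrix-associated target, at 10.7 and 7.11 FPKM in controls and at 5.42 and 2.72 FPKM in mutants, and skila, skilb, and smad3b, with log2 fold changes of -0.89, -0.66, and -0.58. Lower genes were 2 without replicate 2 of the controls, and 1 beside 1 higher without replicate 2 of the mutants. Of 37 Notch genes, jag1b was higher and the receptor gene notch1a was lower, at 7.41 and 7.22 FPKM in controls and at 4.14 and 4.92 FPKM in mutants. The receptor gene notch2 was at 2.24 and 2.26 FPKM in controls and at 2.47 and 2.48 FPKM in mutants, a difference that did not pass. Replicate 2 of the controls held the highest value for 25 of the 37 Notch genes, and the median was -0.16, or -0.06 without that library, while 10 genes were lower without replicate 1 of the controls. The FGF, hedgehog, retinoic acid, hox, and endothelin lists each had at most 3 members in either direction. Of these, etv4, a target of FGF, was lower by -0.63, the retinoic acid binding gene crabp1a was lower by -1.10, and the retinaldehyde reductase gene dhrs3a was higher by 0.97.

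Cartilage matrix genes were lower in mutants, and replicate 2 of the controls contributed much of the difference. Of 24 genes, 11 were lower and 1 was higher (5.06% and 7.18% over all genes). Both mutant libraries lay below both controls for 14 of the 24 (19.2% over all genes), and the median was -0.86. Summed levels were 236 and 634 FPKM in controls and 188 and 247 FPKM in mutants, so that replicate 1 of the controls lay between the mutant libraries. Replicate 2 of the controls held the highest value for 19 of the 24. Without it, 6 genes were lower and 2 were higher, and the median was -0.42, whereas without replicate 1 of the controls 17 were lower and the median was -1.23. Leaving out replicate 1 or replicate 2 of the mutants gave 3 and 6 lower genes. What set the control libraries apart was not tested.

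The cartilage genes that passed covered collagens and secreted proteins. col2a1a, the main collagen of cartilage, was at 23.5 and 58.7 FPKM in controls and at 9.28 and 13.7 FPKM in mutants. mia, which encodes a small protein secreted by chondrocytes, was at 24 and 153 FPKM in controls and at 2.23 and 6.01 FPKM in mutants, and the proteoglycan gene snorc at 3.89 and 18.3 FPKM in controls and at 0.25 and 1.02 FPKM in mutants. In all 3, even the lower control exceeded both mutants, and without replicate 2 of the controls the log2 fold changes were -1.0 instead of -1.64 for col2a1a, -2.39 instead of -3.70 for mia, and -1.62 instead of -2.61 for snorc. The copy col2a1b did not differ in the same way, at 13.5 and 18.6 FPKM in controls and at 16 and 18.6 FPKM in mutants. fmoda, a small proteoglycan gene of tendon and connective tissue, was the one that was higher, by 0.72.

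The regulators of chondrocytes and bone were lower in 5 of 19 cases and higher in none, with a median of -0.24 (-0.36 to -0.23 with each library left out, and 0 to 6 lower, 0 being without replicate 1 of the mutants). Over all genes tested, 5.06% were lower and 7.18% higher. sox9a, the master regulator of cartilage, was at 102 and 170 FPKM in controls and at 66 and 77.9 FPKM in mutants. Its log2 fold change was -0.87 ± 0.28 (SE, adjusted p = 0.318, limma). Its copy sox9b was at 32.5 and 59.2 FPKM in controls and at 24.8 and 25.5 FPKM in mutants, and the cooperating gene sox5 at 12.4 and 21.4 FPKM in controls and at 8.42 and 8.07 FPKM in mutants. Controls exceeded mutants in every library for these 3 genes, again with the widest gap to replicate 2 of the controls. The osteoblast regulator runx2b was at 5.35 and 3.38 FPKM in controls and at 1.53 and 3.08 FPKM in mutants and did not pass. Bone and fibrous matrix had 1 of 26 genes lower, bglap (osteocalcin), at 6.28 and 4.01 FPKM in controls and at 0.6 and 2.25 FPKM in mutants, and a median of 0.04.

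Of 17 basement membrane genes, 3 were higher (col4a5, lamb1a, and nid1a, log2 fold changes 0.45 to 0.74) and none was lower. Over all genes tested, 7.18% were higher and 5.06% lower. Both mutant libraries lay above both controls for 9 of the 17 (24.3% over all genes). Their median was 0.28, and 0.30 to 0.43 with each library left out, though none was higher without replicate 1 of the controls or without replicate 2 of the mutants. Of 28 zinc metalloproteases and their inhibitors, 5 identifiers were higher and 1 was lower. mmp11b was at 1.77 and 1.23 FPKM in controls and at 7.16 and 8.48 FPKM in mutants, the gelatinase gene mmp9 at 19 and 12.6 FPKM in controls and at 45.7 and 39.3 FPKM in mutants, and mmp2 at 11.6 and 25.2 FPKM in controls and at 34.6 and 53.8 FPKM in mutants. An identifier of the collagenase gene mmp13a was at 39.5 and 34.1 FPKM in controls and at 81.1 and 74.7 FPKM in mutants. These 4 were clear of the controls in both mutant libraries, and mmp11b and mmp9 passed the adjusted threshold in the 8-library fit. mmp15b was lower by -0.76.

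**Figure D3:**
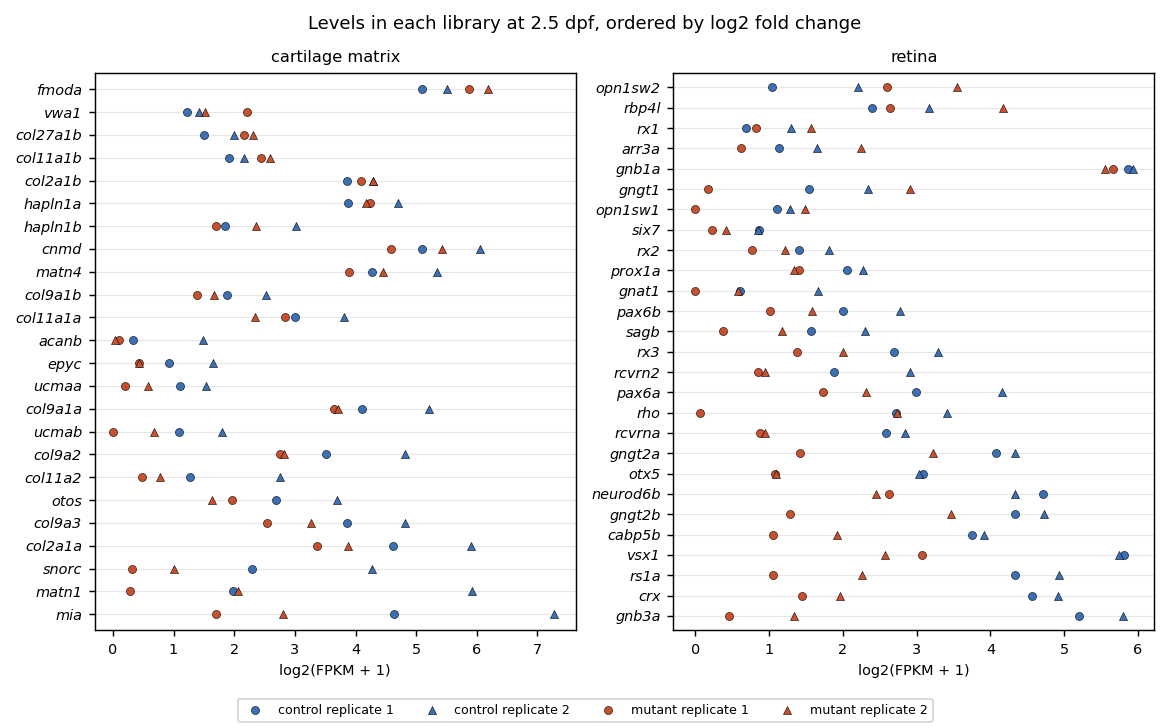
Level in each library, as log2(FPKM + 1) on the horizontal axis, of the 24 cartilage matrix genes and of 27 of the 28 retina genes tested, ordered by log2 fold change. Blue marks are controls and red marks are mutants, with circles for replicate 1 and triangles for replicate 2. Blue triangles are furthest right for 19 of the 24 cartilage genes, and replicate 2 of the controls was also highest for 17 of the 28 retina genes. For vsx1 and crx, both controls are close together and far from both mutants.

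Genes of pigment cells showed little. In the melanophore list, oca2 and mlpha were higher among 14 genes (0.75 and 0.70) and none was lower, at levels under 2 FPKM, while the list's median was -0.33 (-0.34 to -0.11 with each library left out) and 5 were lower without replicate 1 of the controls. No member of the 17 iridophore and purine synthesis genes passed, and of 13 xanthophore genes pax7b was higher (0.74) and csf1ra lower (-0.87). The xanthophore pteridine gene gch2 was at 9.24 and 4.03 FPKM in controls and at 88.9 and 5.56 FPKM in mutants, so that a single mutant library stood apart. In the list of Schwann cells and glia, 3 of 22 were lower and none was higher. olig2, the determinant of motor neurons and oligodendrocytes, was at 157 and 154 FPKM in controls and at 78.4 and 45.5 FPKM in mutants, and the related olig1 at 90.5 and 67.9 FPKM in controls and at 30 and 15.13 FPKM in mutants. Both were clear of the controls (log2 fold changes -1.37 ± 0.28 and -1.83 ± 0.35), as was the radial glia gene fabp7a, at 2535 and 2263 FPKM in controls and at 1518 and 1972 FPKM in mutants. Genes of myelin and Schwann cells such as mbpa, at 5.09 and 4.21 FPKM in controls and at 5.19 and 2.7 FPKM in mutants, overlapped.

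Neuronal genes were lower in part. Of 38, 8 were lower and 2 were higher (5.06% and 7.18% over all genes). Both mutant libraries lay below both controls for 19 of the 38 (19.2% over all genes). The median was -0.27 (-0.42 to -0.09 with each library left out). Those furthest below were transcription factors of neurogenesis. neurod4 was at 40.2 and 49 FPKM in controls and at 16.4 and 11.8 FPKM in mutants, neurod1 at 50 and 54.2 FPKM in controls and at 15.8 and 19.9 FPKM in mutants, and ascl1b at 37.9 and 39.6 FPKM in controls and at 19.2 and 18.9 FPKM in mutants. Replicates were close in all 3 (log2 fold changes -1.61 ± 0.23, -1.50 ± 0.19, and -0.99 ± 0.17). pou4f2, a gene of retinal ganglion cells, was at 7.63 and 6.38 FPKM in controls and at 2.25 and 2.47 FPKM in mutants. The pan-neuronal gene elavl3 overlapped, at 33.1 and 42.5 FPKM in controls and at 33.6 and 28 FPKM in mutants, and the intermediate filament genes inaa and nefma were higher by 0.85 and 0.52. Of 34 genes of synaptic vesicle release, 3 were lower (syt5b at -1.96, stxbp1b at -0.94, and rims2a at -0.53) and none was higher. Over all genes tested, 5.06% were lower. The median of these 34 genes was -0.22, and -0.06 without replicate 2 of the controls. Of 13 ionotropic glutamate receptor genes, 6 were lower and none was higher. Both mutant libraries lay below both controls for 11 of the 13 (19.2% over all genes). The delta receptor gene grid1b was at 9.92 and 6.99 FPKM in controls and at 4.32 and 3.1 FPKM in mutants, and the AMPA receptor gene gria1a at 2.87 and 3.88 FPKM in controls and at 1.68 and 1.45 FPKM in mutants. The median of these receptors was -0.41 (-0.50 to -0.34, and -0.80 with a pseudocount of 0.1), though 0 were lower without replicate 2 of the mutants and 1 without replicate 2 of the controls. Replicate 2 of the controls held the highest value for 24 of the 38 neuronal genes, 25 of the 34 vesicle release genes, and 10 of the 13 receptors.

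Retina genes formed the list with the largest share of lower genes. Of 28 tested, 17 were lower and 1 was higher (5.06% and 7.18% over all genes). Both mutant libraries lay below both controls for 20 of the 28 (19.2% over all genes), and the median was -1.23. Replicate 2 of the controls held the highest value for 17 of the 28, and without it the median was -0.88. Leaving out each library in turn gave medians between -1.59 and -0.81, and without a filter on level the median was -0.39. The summed level was 325 and 407 FPKM in controls and 99 and 158 FPKM in mutants, and a further 18 genes of the list were under the level filter. gnb3a, a G protein subunit of cone photoreceptors, was at 35.8 and 54.8 FPKM in controls and at 0.37 and 1.53 FPKM in mutants (log2 fold change -4.61 ± 0.37, SE, adjusted p = 0.058, limma). vsx1, a transcription factor of bipolar cells, was at 55.1 and 52.8 FPKM in controls and at 7.42 and 4.94 FPKM in mutants (-2.96 ± 0.23). crx, the homeobox regulator of photoreceptors, was at 22.7 and 29.2 FPKM in controls and at 1.73 and 2.9 FPKM in mutants (-3.04 ± 0.26). Every control was several times above every mutant for these genes and for the retinoschisin gene rs1a (-2.98 ± 0.44), and all 4 passed the adjusted threshold in the 8-library fit. The blue opsin gene opn1sw2 was the one that was higher, at 1.06 and 3.62 FPKM in controls and at 5.08 and 10.7 FPKM in mutants. The neurogenesis genes neurod1, neurod4, and pou4f2 are also expressed in retina, and the part of retinal cells in the neuronal differences was not tested.

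Skeletal muscle genes were higher. Of 25 tested, 14 were higher and none was lower (7.18% and 5.06% over all genes). Both mutant libraries lay above both controls for 17 of the 25 (24.3% over all genes), and the median was 0.87. Replicate 2 of the mutants held the highest value for 24 of the 25. Without it the median was 0.46 and 4 genes were higher, whereas without replicate 1 of the mutants the median was 1.17 and 22 were higher. Leaving out replicate 1 or 2 of the controls gave 6 and 5 higher genes, and without a filter on level the median was 0.46. The sums were 196 and 174 FPKM in controls and 254 and 466 FPKM in mutants, 20 further genes of the list were under the filter, and myf6 was listed at 0 in all 4 libraries. The myosin light chain gene myl1 was at 6.4 and 4.32 FPKM in controls and at 13 and 29.1 FPKM in mutants, and the creatine kinase gene ckmb at 3.68 and 2.56 FPKM in controls and at 5.86 and 13.6 FPKM in mutants. The myogenic factor myod1 was lower in level and more even, at 1.21 and 0.6 FPKM in controls and at 3.09 and 4.12 FPKM in mutants. No mutant value of these 3 genes fell within the control range.

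Of 25 genes of white blood cells, 8 were lower and 1 was higher (5.06% and 7.18% over all genes). Summed levels were 16700 and 11610 FPKM in controls and 14840 and 14120 FPKM in mutants, most of it from lyz. The macrophage gene mpeg1.1 was at 59.6 and 75.7 FPKM in controls and at 39 and 28.7 FPKM in mutants, csf1ra, the receptor of a macrophage growth factor, at 7.14 and 5.13 FPKM in controls and at 3.15 and 2.59 FPKM in mutants, and spi1a at 59.2 and 40 FPKM in controls and at 34.7 and 19 FPKM in mutants. The neutrophil peroxidase gene mpx was higher, at 31.3 and 30.9 FPKM in controls and at 50.3 and 48.2 FPKM in mutants. For these 4 genes the groups did not overlap, while lyz did, at 13078 and 9037 FPKM in controls and at 11810 and 12025 FPKM in mutants. The median of -0.19 became 0.09 without replicate 1 of the controls and 0.12 without replicate 2 of the mutants. It was -0.55 without replicate 2 of the controls and also without replicate 1 of the mutants, so its sign rested on single libraries.

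The medians of the lens, skin, ear, and ionocyte lists changed sign with single libraries left out, and that of the endothelial list did not. With each library left out, medians ranged from -0.40 to 0.24 in the ear, -0.23 to 0.22 in ionocytes, and -0.30 to -0.004 in endothelium. Lens crystallin genes had a median of -0.67, with 4 of 28 lower and none higher and 8 of the list at 0 in all 4 libraries, among them cryaa. Summed levels were 125 and 236 FPKM in controls and 23.5 and 212 FPKM in mutants, and the median was 0.05 without replicate 1 of the mutants and -1.33 without replicate 2, where 20 were lower. The crystallin gene crygm2d13 was even, at 11.5 and 11.1 FPKM in controls and at 1.95 and 2.65 FPKM in mutants. Skin genes had 4 of 33 higher and none lower (7.18% and 5.06% over all genes), and 28 of the 33 overlapped between the groups. The higher ones were led by the annexin gene anxa1c, at 0.94 and 0.98 FPKM in controls and at 4.76 and 4.18 FPKM in mutants, and by krt17. The median of the skin list, 0.04, was -0.01 after quantile normalization. Without replicate 1 of the controls 3 skin genes were higher and 6 lower, and without replicate 2 of the controls 8 were higher and 1 lower. In the ear, 3 of 24 were higher and 5 lower, beside the same 7.18% and 5.06% over all genes. oc90, an otoconial matrix gene, was at 0.5 and 0.71 FPKM in controls and at 2.57 and 3.77 FPKM in mutants, while zpld1a (-1.70), pou4f3 (-1.08), otomp (-0.84), and pax8 (-0.71) were lower. Endothelial genes had 2 of 15 higher (7.18% over all genes) and 2 lower (5.06% over all genes). The lower ones were the apelin receptors, aplnrb at 122 and 134 FPKM in controls and at 38.1 and 42.3 FPKM in mutants and aplnra at 181 and 127 FPKM in controls and at 46.4 and 60.7 FPKM in mutants. The groups were far apart, and both genes passed the adjusted threshold in the 8-library fit. Beyond foxi1, ionocyte genes had 2 of 16 lower, atp1a1a.4 and slc4a4b, beside 5.06% over all genes.

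**Figure D4:**
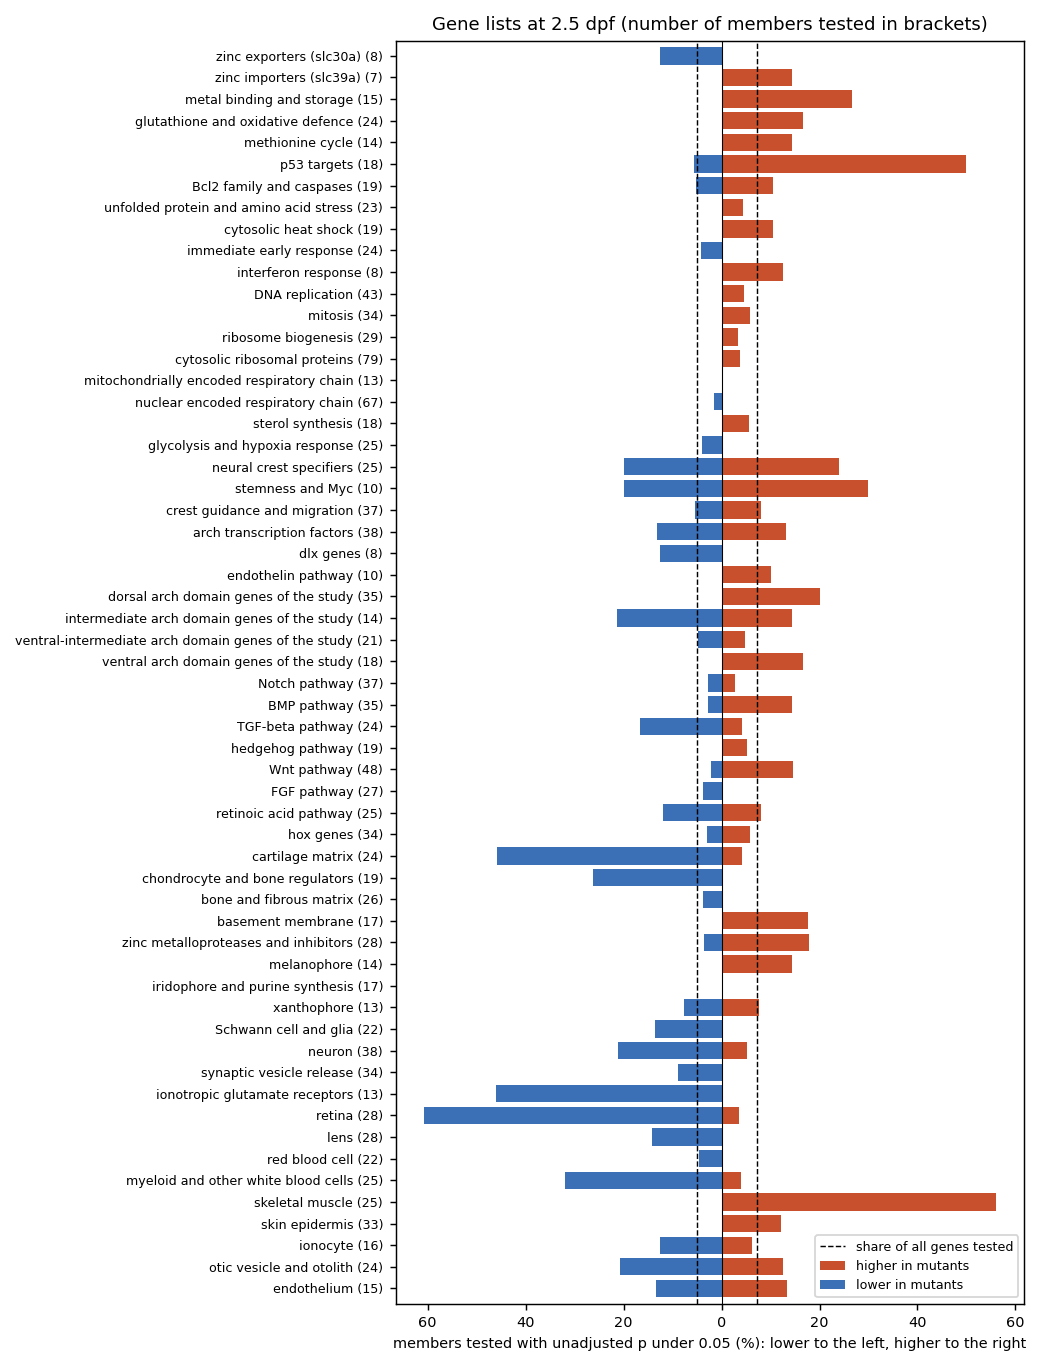
Share of the tested members of each of the 58 gene lists (vertical axis, with the number tested) that reached an unadjusted p under 0.05, in percent, lower in mutants to the left in blue and higher to the right in red. Dashed lines mark the shares over all genes tested, 5.06% and 7.18%. Retina (17 of 28 lower), glutamate receptors (6 of 13 lower), cartilage matrix (11 of 24 lower), p53 targets (9 of 18 higher), and skeletal muscle (14 of 25 higher) reach furthest from these lines.

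The 4 libraries of 2 dpf, which are separate samples, gave a second reading of the same genes. Of the 290 genes past the selection of the study and higher at 2.5 dpf, 266 were tested at 2 dpf, and 216 of them (81.2%) were higher there at an unadjusted p under 0.05, against 19.3% of all genes tested at 2 dpf. Of the 222 lower genes, 200 were tested and 144 (72%) were lower, against 5.37% of all genes. Only 6 and 3 of them, respectively, passed in the opposite direction. The 6 were anxa1c, hsp90aa1.1, mmp13a, mylpfa, mylpfb, and CABZ01080568.1, and the 3 were ifitm5, pyya, and RF00004, all named after their values were seen. At 2 dpf the log2 fold changes were 3.26 for cdkn1a, 4.22 for mt2, 4.45 for fthl28, 4.09 for foxi1, -4.43 for gnb3a, and -3.09 for crx, beside 3.58, 2.99, 3.33, 3.27, -4.61, and -3.04 at 2.5 dpf. These genes were thus apart from controls in the same direction at both stages.

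The medians of several gene lists were unlike at the stages, which was not tested for lists. Skeletal muscle was at 0.87 at 2.5 dpf and -0.30 at 2 dpf, neuronal genes at -0.27 and 0.26, and glutamate receptors at -0.41 and 0.11. Cartilage matrix was at -0.86 and -0.14, lens at -0.67 and -2.24, and red blood cell genes at 0.33 and -1.35. With each library of 2.5 dpf left out, the median ranged from -1.33 to 0.05 for lens and from -0.26 to 0.81 for red blood cell genes. The other lists named in this paragraph kept their sign, and no such range was taken at 2 dpf. The p53 targets were at 0.76 and 1.26, and ribosome biogenesis at 0.22 and 0.56. Of its 29 genes, 22 were higher at 2 dpf against 1 at 2.5 dpf. Over all genes tested, 19.3% were higher and 5.37% lower at 2 dpf, against 7.18% and 5.06% at 2.5 dpf. The list medians were not corrected for this difference between the stages. The difference between the stages was tested gene by gene in the 8 libraries, by asking whether the effect of genotype depended on stage. None of 16703 genes passed the adjusted threshold by limma (smallest adjusted p 0.475), and 902 reached an unadjusted p under 0.05, so no gene is called different in its response between 2 and 2.5 dpf. Each stage was scaled in a table of its own. Some genes described here had unlike fold changes at the stages without being called different. cart4, named after its values were seen, was at 3.2 at 2.5 dpf and 1.24 at 2 dpf. In the same order, mmp9 was at 1.39 and -0.19, prdx1 at 1.45 and 0.51, and sst2 at 5.19 and 1.73. Unadjusted p of the interaction by limma was 0.00095 for mmp9, but 0.12 for prdx1 and 0.14 for sst2. It was 0.00011 for anxa1c and 0.0015 for hsp90aa1.1.

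**Figure D5:**
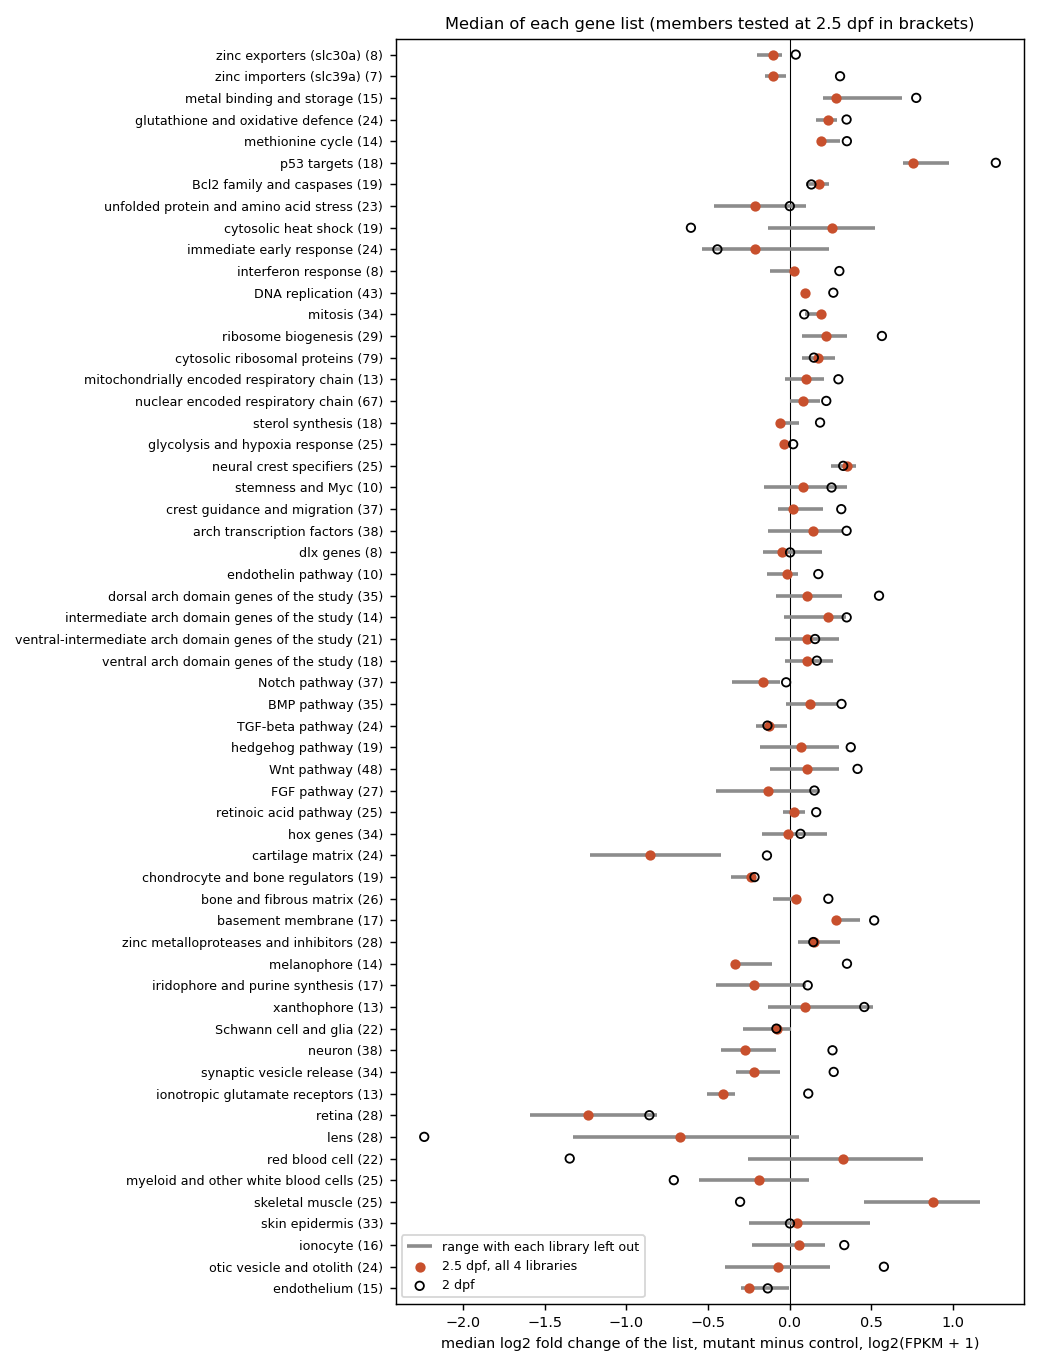
Median log2 fold change of each of the 58 gene lists, mutant minus control on the log2(FPKM + 1) scale (horizontal axis), with the number of members tested. Red points are 2.5 dpf with all 4 libraries, gray bars span the 4 medians with each library left out, and open circles are 2 dpf. The bar of p53 targets (0.70 to 0.98) stays clear of 0, while that of lens genes (-1.33 to 0.05) crosses it.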

How the data were processed

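RNA of sorted cells was reverse transcribed with the SMARTer oligo(dT) kit, amplified by PCR, fragmented, and sequenced with paired ends on a NovaSeq instrument. The authors aligned the reads to GRCz11 with HISAT, merged StringTie assemblies, and deposited a table of FPKM for each stage, with values given to 2 decimals. Tool versions are not given in the sources used here. FPKM hold no depth, so no counting error can be given.

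Here, values were taken as log2(FPKM + 1) and fitted by limma 3.58.1 in R 4.3.3 with a trend of the variance, for genes averaging 0.5 FPKM or more. The p-values of all tested genes were adjusted together after Benjamini and Hochberg. An exact permutation test of 2 against 2 libraries cannot pass 0.05. The 2 dpf table was fitted alike, and the interaction over all 8 libraries. The calculation was tested on simulated data.

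Genes named are the targets, the 12 furthest above and below controls without overlap, and up to 4 members of each of 58 lists in each direction at an unadjusted p under 0.05, or the most abundant member. Genes given beside these, such as members that did not pass, were chosen after their values were seen. Lists and members were chosen with earlier results of these data known. Identifiers sharing a symbol were kept apart. A few members that the lists count are not reported by name here.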

Additional observations from a re-analysis of the deposited data

How the results depend on the processing

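The count of 0 genes at an adjusted p of 0.05 held with a pseudocount of 0.1, without a filter, after median-ratio rescaling or quantile normalization, without a variance trend, and with each library left out. It became 28 with a filter at a mean of 2 FPKM, which tests 11825 genes, and 276 with all 8 libraries in the fit. With the replicate block, 738 genes passed (412 higher, 326 lower), and genes lower at an unadjusted p under 0.05 were 1430. Lower lens genes were then 19 instead of 4. Differences between replicates 1 and 2 in controls and in mutants had a correlation across 17379 genes of 0.371, so same-numbered libraries tended to deviate together. With only 2 pairs, and labels that share a number but name no common clutch or day, this does not settle whether the libraries were paired, and the fit without the block was kept as designed. At an unadjusted p under 0.05, 781 genes were higher with the filter at 2 FPKM, and leaving out each library gave 709 to 971 higher and 510 to 1057 lower genes. Higher genes were 58.7% of these calls, and 46.3% without control replicate 1. The selection of the study held 654 higher and 470 lower genes with a pseudocount of 0.1, and 303 to 476 higher and 242 to 418 lower genes with each library left out. Of 182 named genes, mt-co2 alone changed sign, from 0.03 to between -0.13 and 0 in 4 fits. Most named genes were picked for their difference in these same libraries, so their steady sign follows from the choice and is no support. mt-co2 was named as the most abundant member of a list in which no gene passed. The medians of 18 of 58 lists changed sign when control replicate 1 was left out, 6 for the other control, 11 for mutant replicate 1, and 13 for the other mutant library. The number of libraries limits the precision, and low genes such as slc30a1b cannot be compared.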

Other observations

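Among genes outside the lists, named after their values were seen, neuropeptide genes of the CART family stood above controls beside ghrh and sst2. cart3 was at 4.41 and 4.21 FPKM in controls and at 24.1 and 32.6 FPKM in mutants, and cart4 at 1.48 and 0.24 FPKM in controls and at 14.8 and 15.4 FPKM in mutants. Their log2 fold changes were 2.45 ± 0.21 and 3.2 ± 0.35, and no mutant value lay near a control value. Another somatostatin gene, sst1.1, was at 24.9 and 92.9 FPKM in controls and at 19.9 and 28.7 FPKM in mutants, with overlap, and npy was below 1 FPKM in all 4 libraries. The peptide YY gene pyya went the other way, among the genes past the selection of the study that were lower at 2.5 dpf.

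Complement genes of macrophages and microglia were also named after their values were seen. c1qb was at 47.1 and 22.4 FPKM in controls and at 8.01 and 5.03 FPKM in mutants, and c1qc at 45.8 and 30 FPKM in controls and at 10.4 and 4.52 FPKM in mutants. Both groups were separate, with log2 fold changes of -2.19 ± 0.40 and -2.26 ± 0.40. In contrast, apoeb, a gene that microglia share with other cells, was at 199 and 93.1 FPKM in controls and at 223 and 110 FPKM in mutants, so that the replicate number divided its values more than the genotype did.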
